A study of Mus musculus with 4 samples.

Results

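Dividing T cells and natural killer (NK) cells made up 114 of 10925 cell barcodes from mouse brains after stroke. A barcode was counted as a dividing lymphocyte when it carried 4 or more UMIs (unique molecular identifiers, each standing for 1 captured RNA molecule) of the 5 proliferation genes Mki67, Top2a, Birc5, Pclaf and Stmn1. It also had to hold at least 200 genes, at most 10% mitochondrial UMIs, 2 or more UMIs of Cd3d, Cd3e, Cd3g, Trac, Ncr1 and Klrb1c together, fewer than 3 UMIs of the B cell genes Cd79a, Cd79b and Ms4a1, and at most 2% of UMIs from 7 phagocyte genes. The 1796 barcodes that met every limit but the one on proliferation genes are the other lymphocytes, giving 1910 lymphocytes in all. All animals were C57/BL6 mice with a transient occlusion of the middle cerebral artery (tMCAO), a model of ischemic stroke in which blood flow returns. The ischemic hemisphere was taken 14 or 5 days later, cells with high surface CD45 (a protein of leukocytes) were sorted, and droplet libraries of 3' RNA ends were made, 2 libraries for each day. The labels do not say how many mice stand behind a library, so every p-value here measures the spread between libraries, and no unoperated brain was analysed here.

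A lymphocyte that divides first licenses its replication origins with the Mcm helicase, then copies its DNA while it makes deoxynucleotides and histones, and then builds a spindle and parts the chromosomes. Resting T cells keep out of the cycle with the help of factors such as Klf2 and Btg1, and regulatory T cells, marked by the transcription factor Foxp3, are known to expand in injured tissues, the brain after stroke among them. NK cells carry granules of perforin and granzymes and can divide in tissue when cytokines reach them.

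On day 14 the dividing cells numbered 41 of 980 and 64 of 643 lymphocytes in libraries 1 and 2, which is 4.18% (95% exact binomial interval 3.02 to 5.63) and 9.95% (7.75 to 12.5). On day 5 they numbered 7 of 146 and 2 of 141, or 4.79% (1.95 to 9.63) and 1.42% (0.172 to 5.03). The means were 7.07 ± 4.08% on day 14 and 3.11 ± 2.39% on day 5 (SD, n = 2 each), and the libraries of both days overlapped. Day 14 supplied 105 of the 114 dividing cells, and lymphocytes of all kinds were more common there, at 38.0% and 27.9% of barcodes on day 14, against 5.83% and 4.09% on day 5. With every cell thinned to 1000 UMIs and a limit of 2 proliferation UMIs, the shares were 4.87% (79 of 1623) on day 14 and 3.60% (9 of 250) on day 5. Intervals cover counting error only.

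The limit on phagocyte RNA decided more cells than the limit on B cell genes. Of 671 barcodes with enough proliferation UMIs, 157 had enough T or NK UMIs, 154 were also within the B cell limit and 114 were within the phagocyte limit. On day 14 that last step kept 41 of 52 and 64 of 74 barcodes, and on day 5 it kept 7 of 18 and 2 of 10. Dividing cells held about 3 times as many UMIs as the others, with medians of 6519 and 6777.5 in dividing cells on day 14, against 2113 and 2529 in other cells of those libraries. Doublets were not called, and their part in the results was not tested. Mitochondrial shares were alike, at 2.24% and 2.01% in dividing cells and 2.38% and 2.2% in other cells on day 14. Libraries shared between 5 and 16 barcodes in pairs, and no dividing cell was among them. Total depth was between 9288054 and 13610119 UMIs a library.

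The proliferation genes chose the cells, so their levels are a description. Mki67, whose protein coats mitotic chromosomes, had UMIs in 65.9% and 48.4% of dividing cells on day 14, against 0.852% and 0.691% of other cells. Stmn1, which destabilises microtubules, had UMIs in 97.6% and 100% of dividing cells on day 14, against 5.11% and 7.08% of other cells. Cells just outside the limit, with 3 proliferation UMIs, spent a median of 0.334% of their UMIs on 91 S, G2 and M phase genes that the rule did not use (10 cells). Cells just inside it, with 4 UMIs, spent 0.324% (9 cells), and those with 5 spent 0.715% (10 cells). The 57 cells with 20 or more proliferation UMIs spent 1.68%, and the 1574 lymphocytes with none spent 0.188%. Of mature neutrophils, which do not divide, 2 of 146 reached 4 proliferation UMIs (1.37%, interval 0.166 to 4.86), at a median of 1608.5 UMIs a cell.

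**Figure D1:**
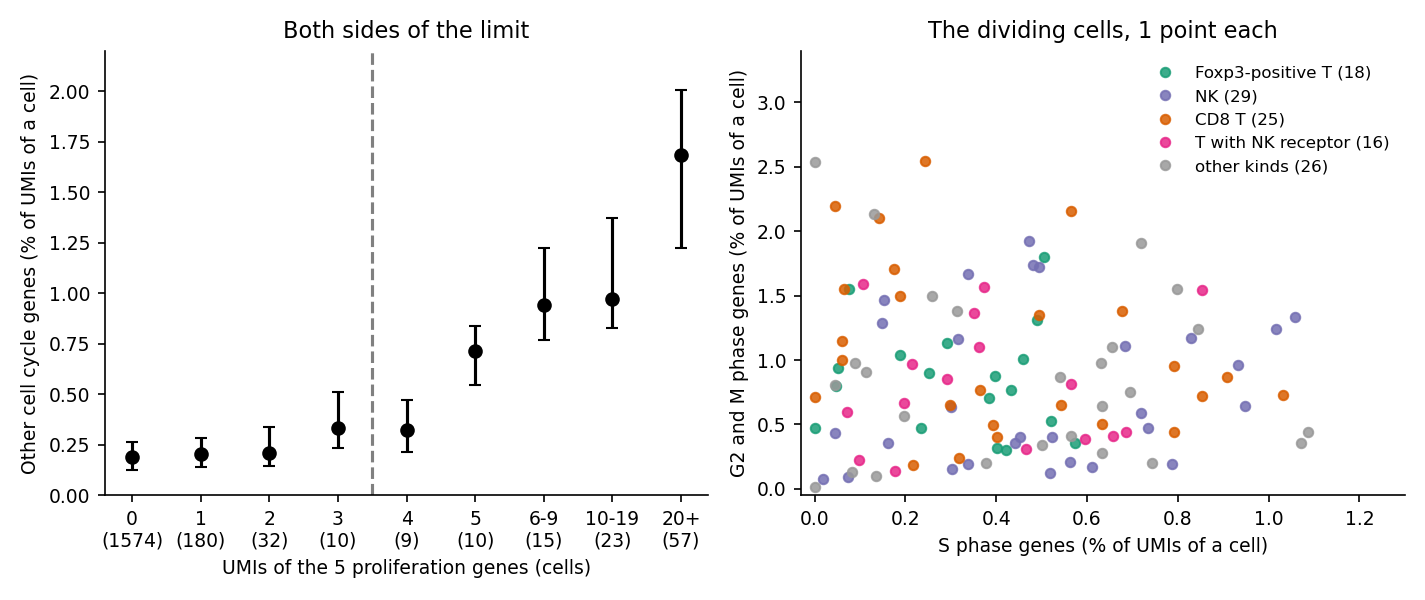
Left, the median share of a cell's UMIs in S, G2 and M phase genes outside the rule (dots; bars span the quartiles) by the number of UMIs of the 5 proliferation genes, with the limit of 4 as a dashed line and cell numbers in brackets; cells with 4 UMIs lie at 0.324%, close to those with 3. Right, each dividing cell by its share of UMIs in S phase genes (x axis) and in G2 and M phase genes (y axis), coloured by kind; the kinds overlap.

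Most dividing cells carried RNA of more than 1 phase. Of the 114, 80 had both replication and mitotic transcripts, 23 had replication transcripts alone, 9 had mitotic transcripts alone and 2 had neither. Of the 1796 other lymphocytes, whose cells held fewer UMIs, 100 had both, 569 replication transcripts alone, 139 mitotic transcripts alone and 988 neither. S phase genes took a median of 0.363% and 0.398% of UMIs in dividing cells on day 14, and G2 and M phase genes took 0.900% and 0.618%. By kind on day 14, the median for G2 and M phase genes was 0.838% in 18 Foxp3-positive cells, 0.815% in 24 CD8 T cells and 0.450% in 22 NK cells. Those medians sit within wide ranges, from 0.303% to 1.80% among the Foxp3-positive cells and from 0.0747% to 1.92% among the NK cells.

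Each lymphocyte was given 1 kind from its own transcripts. A Foxp3-positive T cell had a Foxp3 UMI and a T cell UMI. An NK cell had 2 or more UMIs of Ncr1 and Klrb1c and no T cell UMI, and a T cell with an NK receptor had UMIs of both. The remaining T cells were gamma delta (Trdc without Trac), CD8, CD4, both, or other. Among the 105 dividing cells of day 14 were 24 CD8 T cells (22.9%), 22 NK cells (21%), 18 Foxp3-positive T cells (17.1%), 16 T cells with an NK receptor (15.2%) and 14 other T cells (13.3%). CD4 T cells without Foxp3 and gamma delta T cells supplied 4 cells each, and 3 cells had both CD4 and CD8 UMIs. The libraries differed in that mix: NK cells were 4 of 41 dividing cells (9.76%) in day 14 library 1 and 18 of 64 (28.1%) in day 14 library 2. All but 2 of the 9 dividing cells of day 5 were NK cells.

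Foxp3-positive T cells held the highest share of dividing cells among the kinds with more than 20 cells on day 14. They divided in 10 of 50 cells in library 1 (20%, interval 10.0 to 33.7) and in 8 of 25 in library 2 (32.0%, 14.9 to 53.5), or 24.0% in all (14.9 to 35.3). T cells with an NK receptor followed at 6.52% and 12.7%, and CD8 T cells at 7.01% and 12.7%. NK cells stood at 2.41% and 10.3% on day 14, and at 6.17% and 2.56% on day 5, so the days overlapped. Other T cells reached 2.04% and 6.16%, and CD4 T cells 4.11% and 3.13%. Cells with both CD4 and CD8 UMIs, too few for that ranking, gave 3 of 11 (27.3%, interval 6.02 to 61.0). Gamma delta T cells gave 0 of 188 dividing cells in day 14 library 1, which allows a share of up to 1.60% by the limit of 3 counts, and 4 of 82 (4.88%) in library 2. In library 1 the CD8 interval (3.55 to 12.2) lay above that limit, while within each library the Foxp3-positive and CD8 intervals overlapped.

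**Figure D2:**
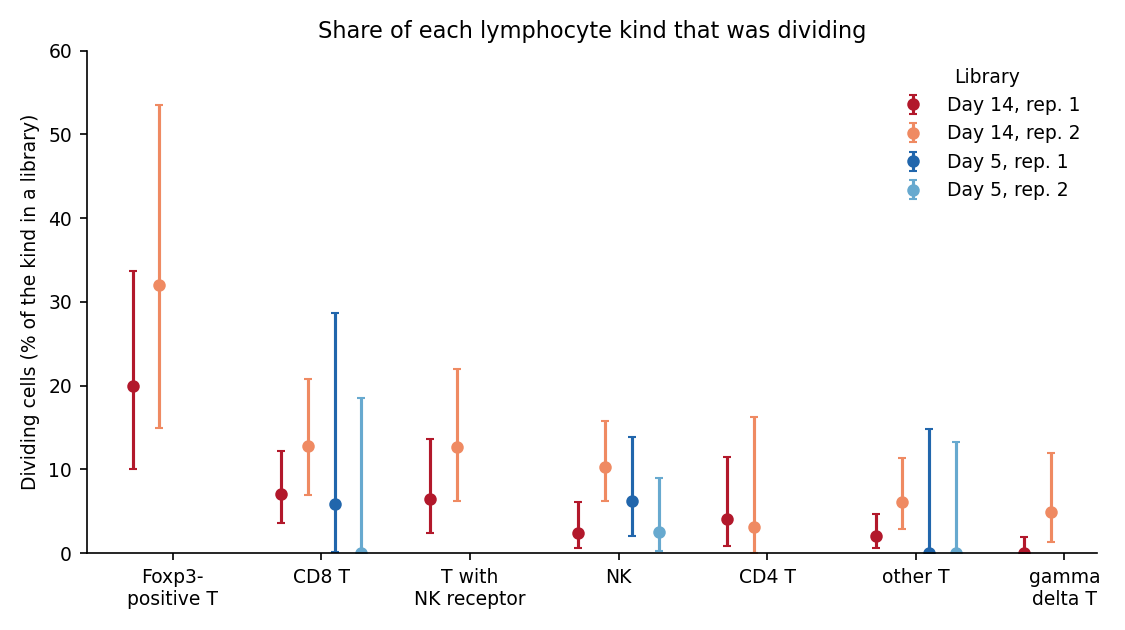
Dividing cells as a percentage of each lymphocyte kind (y axis) in each library (colours; kinds with 10 or fewer cells in a library are left out), with 95% exact binomial intervals as bars. Foxp3-positive T cells stand highest in both day 14 libraries, at 20% and 32.0%.

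Cells with more UMIs are more likely to show a Foxp3 UMI, and dividing cells had more UMIs. Dividing Foxp3-positive cells held 2968 to 24112 UMIs on day 14, against a median of 3019 over all Foxp3-positive cells. Without the cells of highest UMI count, neither day 14 library kept 5 Foxp3-positive cells in both sets. The other kinds also rest on the presence or lack of UMIs of a few genes, so the kinds were also read at equal depth. With the kinds kept and every cell thinned to 1000 UMIs, 12 of 75 Foxp3-positive cells (16%) passed on day 14, against 7.34% of CD8 T cells, 7.02% of T cells with an NK receptor, 4.40% of NK cells and 1.48% of gamma delta T cells. With the kinds also read from the thinned counts, 3 of 29 Foxp3-positive cells passed (10.3%, interval 2.19 to 27.4), against 16 of 209 CD8 T cells (7.66%), so at that depth the Foxp3-positive share was not separated from the CD8 share. In that reading 3 of 63 T cells with an NK receptor (4.76%), 4 of 162 NK cells (2.47%) and 5 of 272 gamma delta T cells (1.84%) passed. Of all 79 cells that passed, 24 were other T cells and 22 fell in no kind. A Foxp3 UMI was seen in 1 of 341 NK cells (0.293%) and in 73 of 1109 T cells (6.58%) on day 14, at medians of 2733 and 2177 UMIs.

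The 91 cell cycle genes outside the rule gave a second reading over all cells of a kind, dividing or not. They took 0.766% and 0.736% of the summed UMIs of Foxp3-positive T cells in the 2 day 14 libraries. In the same libraries they took 0.366% and 0.465% in CD8 T cells, 0.409% and 0.401% in T cells with an NK receptor, 0.270% and 0.369% in NK cells, and 0.206% and 0.353% in gamma delta T cells. The Foxp3-positive values lay above those of the 6 other kinds with 10 or more cells in both libraries. Dividing cells carry these genes together with those of the rule, and deep cells are called Foxp3-positive more often, so the pattern is a description. In CD8 T cells the day 5 values of 0.545% and 0.220% enclosed the day 14 values, and in NK cells day 5 gave 0.420% and 0.357%.

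**Figure D3:**
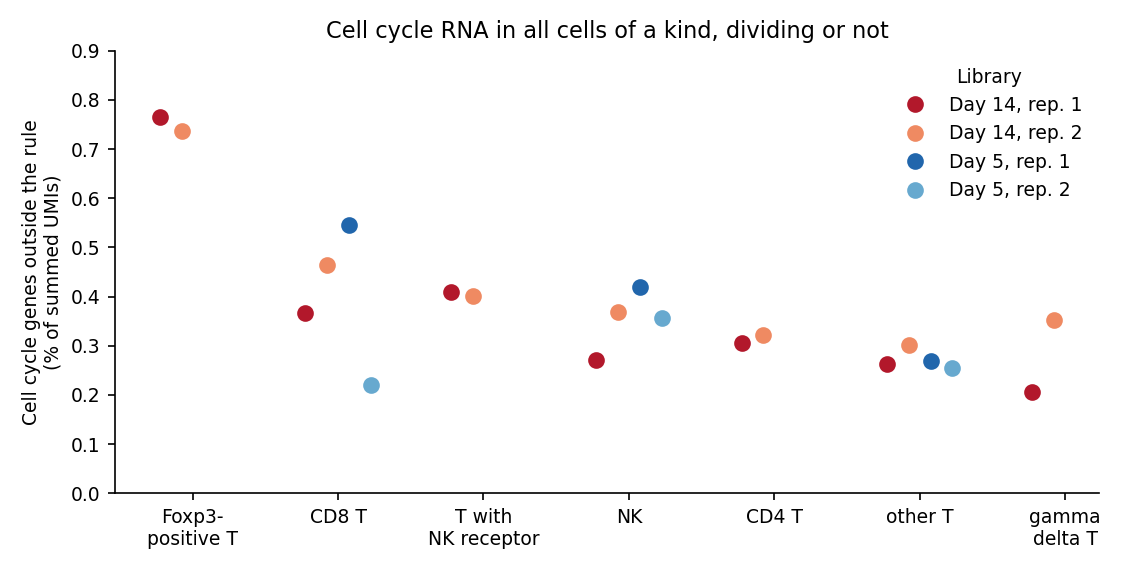
Share of summed UMIs in 91 cell cycle genes outside the rule (y axis) over all cells of a kind, 1 point for each library (colours). Foxp3-positive T cells lie at 0.766% and 0.736%, above the 6 other kinds in both day 14 libraries.

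No single cell cycle gene passed the test between the days in T cells. In all T cells without an NK receptor UMI, 54 of 6455 genes passed the threshold (edgeR's quasi-likelihood test, Benjamini-Hochberg adjusted p under 0.05), 32 higher (0.496%) and 22 lower (0.341%) on day 14, which is 0.837%, and 667 had an unadjusted p under 0.05. None of the genes on the 8 lists of cell cycle genes was among the 54, though 15 of 17 spindle genes lay above 0, with a median log2 difference of 0.62. With simulated counts of this design, 23.3% of differences of 1 and 70.0% of differences of 2 on the log2 scale were found. In all NK cells 262 of 3855 genes passed (6.8%), 172 higher (4.46%) and 90 lower (2.33%) on day 14, and of the cell cycle lists only H2afz did. H2afz, a variant histone with near-identical copies in the genome, had 940 and 1280 CPM (UMIs scaled to a total of 1e6) on day 14, against 2041 and 1981 on day 5, and the days did not overlap (log2 difference -0.85 ± 0.16, edgeR's quasi-likelihood adjusted p = 0.000515). Some genes that were higher on day 14 had the names of predicted genes (Gm) or pseudogenes (-ps). They were 17 of the 32 in T cells and 24 of the 172 in NK cells. Of these, 2 and 5 had no UMI on day 5. Among them, Rpl9-ps6 had 938 and 898 CPM in NK cells on day 14 and 0 in both libraries of day 5. The share of such names among all tested genes was not counted. The part of these genes in the day results was not tested. Dendritic cell markers summed to 12860 and 9255 CPM in the other lymphocytes of day 5, against 2722 and 5050 on day 14. Their part in the day results was not tested either. Only 9 dividing cells came from day 5, so dividing cells of the 2 days were not compared gene by gene.

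Dividing and other lymphocytes of the same library were then set side by side, in the 2 day 14 libraries that held at least 10 cells of each. UMIs were summed over the cells of a set and given as CPM, the counts scaled to a library total of 1e6 with edgeR's TMM factors. The cells were picked by reads of the same libraries, and cells picked for 5 cycle genes carry the rest of the cycle with them. The folds and the counts past the threshold are therefore a description, and no p-value is given for a gene in comparisons of dividing with other cells. Of 7901 genes outside the rule, 833 were higher (10.5%) and 569 lower (7.2%) in dividing cells at an adjusted p under 0.05, and the median log2 difference of all genes was -0.04. DESeq2 put 280 higher and 72 lower past the same threshold.

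The helicase and its loaders stood higher throughout. All 11 licensing genes that could be tested, of 14 listed, passed in the higher direction, with a median log2 difference of 2.51. Mcm5, a subunit of the helicase, had 157 and 160 CPM in dividing cells, against 15 and 25.4 in other cells (log2 difference 2.98 ± 0.26 SE). Mcm7 had 127 and 143 in dividing cells, against 19.4 and 23.7 in other cells. Mcm6, with 127 and 166 in dividing cells, was less apart from other cells at 49.9 and 64.7 CPM. Both sets were separate in both libraries for each of these genes. Cdc6, which loads the helicase, had 27.2 and 24.6 CPM in dividing cells, against 0.442 and 2.89 in other cells.

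All 15 genes of the replication fork and clamp were higher, by a median of 2.16 on the log2 scale. Pcna, the sliding clamp, had 281 and 313 CPM in dividing cells, against 80.4 and 84.3 in other cells. Lig1, which joins Okazaki fragments, had 187 and 164 in dividing cells, against 11.9 and 24.3 in other cells. Pole and Clspn, a polymerase subunit and a checkpoint mediator, had 20.5 to 51.4 CPM in dividing cells and at most 2.21 in other cells. Of 15 nucleotide synthesis genes, 13 were higher and none lower. Rrm2, the regulated subunit of ribonucleotide reductase, had 296 and 275 CPM in dividing cells, against 3.98 and 4.04 in other cells (log2 difference 6.12 ± 0.30). Tyms and Tk1, which make and salvage thymidylate, had log2 differences of 3.63 ± 0.26 and 4.55 ± 0.34.

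All 18 tested genes of histone supply and chromatin copying were higher, by a median of 2.91. Hist1h2ap, a histone H2A gene whose near-identical copies could share its reads, had 3982 and 1162 CPM in dividing cells, against 48.2 and 19.1 in other cells. Its level differed between the dividing sets of the libraries, and both lay above the other cells. Hmgb2, a chromatin protein of cycling cells, had 3271 and 2471 in dividing cells, against 381 and 359 in other cells. Asf1b and Uhrf1, which hand over histones and copy DNA methylation, had log2 differences of 4.10 ± 0.29 and 3.8 ± 0.38.

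Of 27 cyclins, kinases and regulators tested, 20 were higher and 1, Ccnd2, was lower. Ccna2, the cyclin of S phase and mitotic entry, had 169 and 125 CPM in dividing cells, against 1.77 and 0 in other cells. Ccnb2 had 275 and 160 in dividing cells, against 4.86 and 5.20 in other cells, and Cdk1, its kinase partner, 145 and 154 against 7.07 and 3.47. Ccnd2, which drives entry from rest, had 215 and 229 in dividing cells, against 400 and 447 in other cells (log2 difference -0.93 ± 0.17). Ccnd3 had 130 and 209 in dividing cells and 193 and 237 in other cells, lower within each library but not past the threshold (log2 difference -0.34 ± 0.19).

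Genes of the spindle, the kinetochore and cytokinesis stood farthest apart, with all 35 tested genes higher and a median log2 difference of 5.45. Ube2c, which tags mitotic proteins for destruction, had 426 and 307 CPM in dividing cells, against 4.86 and 5.20 in other cells. Cenpf, a kinetochore protein, had 166 and 109 in dividing cells, against 0.442 and 1.16 in other cells. Cdca8 and Aurkb, both of the chromosomal passenger complex, had log2 differences of 6.55 ± 0.36 and 5.45 ± 0.47. Cdc20, which activates the ubiquitin ligase of anaphase, had 209 and 96.3 in dividing cells, against 3.09 and 2.89 in other cells. Cenpa, the centromere histone, was less apart, with 357 and 264 in dividing cells, against 62.3 and 50.8 in other cells. By the rule for named genes, Neil3, Shcbp1, Mxd3, Nusap1 and Plk1 were also among the 10 largest, with log2 differences from 6.26 to 7.32.

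The 14 genes of condensin, cohesin and the nuclear envelope were all higher as well, at a median of 1.93, and so were 7 tubulins, at 2.37. Smc2 and Ncapd2, of the condensin that compacts chromosomes, had log2 differences of 3.06 ± 0.24 and 3.51 ± 0.34, and Lmnb1, of the nuclear lamina, 2.51 ± 0.20. Tubb5, a beta tubulin, had 2264 and 2032 CPM in dividing cells, against 304 and 359 in other cells. Per cell that was 18.3 and 15.5 UMIs in dividing cells and 0.733 and 1.07 in other cells.

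Promoters of 2 of these lists are shown because genes of both were higher together. The sequences are from RefSeq on build GRCm38.p6 and give 140 bases up to the base before the annotated start, 5′ to 3′ on the gene's strand. Capitals mark matches, on either strand, to CCAAT, to TTTGAA, and to TTTCGCGC or TTTGGCGC, the last 2 of which can overlap each other. A match on the other strand reads as the reverse complement. TTTGAA is the core of the cell cycle homology region, CCAAT the box bound by NF-Y, and the last 2 are E2F forms. Shown are the 2 genes of each list with the highest level in dividing cells, among those with a single annotated start and outside a chromosome that was left out.
Ube2c, chr2:164769789-164769928, plus strand: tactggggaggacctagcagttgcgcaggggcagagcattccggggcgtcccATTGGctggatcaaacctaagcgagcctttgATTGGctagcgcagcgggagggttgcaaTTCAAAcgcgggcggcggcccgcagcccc
Cenpa, chr5:30666746-30666885, plus strand: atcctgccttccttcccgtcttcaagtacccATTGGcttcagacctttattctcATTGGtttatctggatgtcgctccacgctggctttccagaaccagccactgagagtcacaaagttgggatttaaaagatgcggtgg
Mcm5, chr8:75109369-75109508, plus strand: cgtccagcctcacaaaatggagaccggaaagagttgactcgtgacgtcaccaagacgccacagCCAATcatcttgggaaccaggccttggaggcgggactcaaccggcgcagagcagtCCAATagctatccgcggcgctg
Mcm6, chr1:128359706-128359845, minus strand: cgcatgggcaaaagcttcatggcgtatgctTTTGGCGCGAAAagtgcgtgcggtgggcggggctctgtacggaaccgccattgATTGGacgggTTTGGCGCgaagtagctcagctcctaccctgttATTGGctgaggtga

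In promoters of 300 bases, from 250 before to 50 after the start, TTTGAA or its reverse was present in 25 of 32 spindle genes with a promoter entry (78.1%) and in 2 of 11 licensing genes (18.2%). It was present in 22.0% of the genes higher in dividing cells, 12.6% of all tested genes and 18.1% of 27025 promoters. TTTCGCGC was present in 0 of 32 spindle genes and 4 of 11 licensing genes (36.4%), against 0.655% of tested genes, and TTTGGCGC likewise in 0 and 4, against 1.29%. CCAAT was present in 75% of the spindle genes and 81.8% of the licensing genes, against 39.2% of tested genes. In the printed stretches, Ube2c holds TTTGAA on the reverse strand with its first base 29 before the start, and Mcm6 holds TTTGGCGC at 110 and 47 before it. Cenpa and Mcm5 each hold 2 CCAAT matches there and no match to the other forms. A match is a description of the letters, and no factor's binding was measured.

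**Figure D4:**
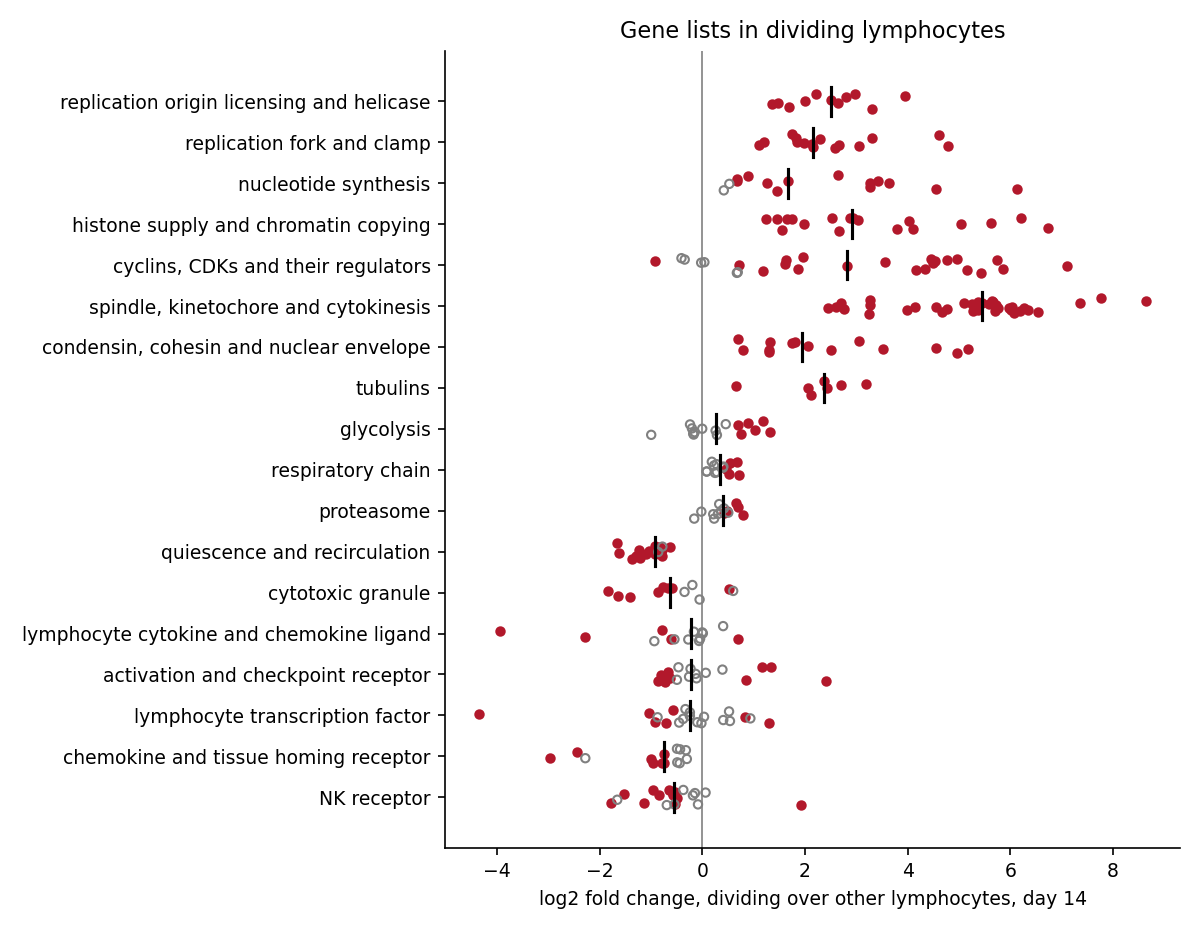
Log2 difference of dividing over other lymphocytes on day 14 (x axis) for each tested gene of 18 lists (rows), with filled red dots for genes past the adjusted threshold, open grey dots for the others and a black bar at the list's median. Spindle genes lie farthest right, at a median of 5.45, and quiescence genes lie left of 0, at -0.93.

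Genes of rest and recirculation were lower as a share of UMIs. Of 17 tested, 15 were lower and none higher, with a median log2 difference of -0.93. Btg1, which restrains proliferation, had 457 and 705 CPM in dividing cells, against 1909 and 1682 in other cells. Klf2, which keeps T cells at rest and in circulation, had 245 and 186 in dividing cells, against 582 and 436 in other cells. Il7r, the receptor of the survival cytokine IL-7, had 84.7 and 43.0 in dividing cells, against 251 and 149 in other cells. S1pr1, Foxo1 and Bcl2, for exit from tissue, rest and survival, had log2 differences from -1.22 to -1.38. The sets were separate in each library for these genes. DESeq2 put 5 of the 17 past the threshold, and 4 of 16 passed with every cell thinned to 1000 UMIs.

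A lower share was not always a lower amount per cell, since dividing cells held more UMIs. Btg1 counted 3.68 and 5.38 UMIs per dividing cell, against 4.60 and 5.03 per other cell. Klf2 counted 1.98 and 1.42 per dividing cell, against 1.40 and 1.3 per other cell, so it was not lower per cell in either library. Bcl2, which blocks cell death, counted 1.00 and 1.41 per dividing cell and 0.800 and 1.28 per other cell. Ccl5 stayed lower on both scales: it had 571 and 1051 CPM in dividing cells, against 4112 and 3637 in other cells, and 4.61 and 8.02 UMIs per dividing cell, against 9.91 and 10.9 per other cell.

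**Figure D5:**
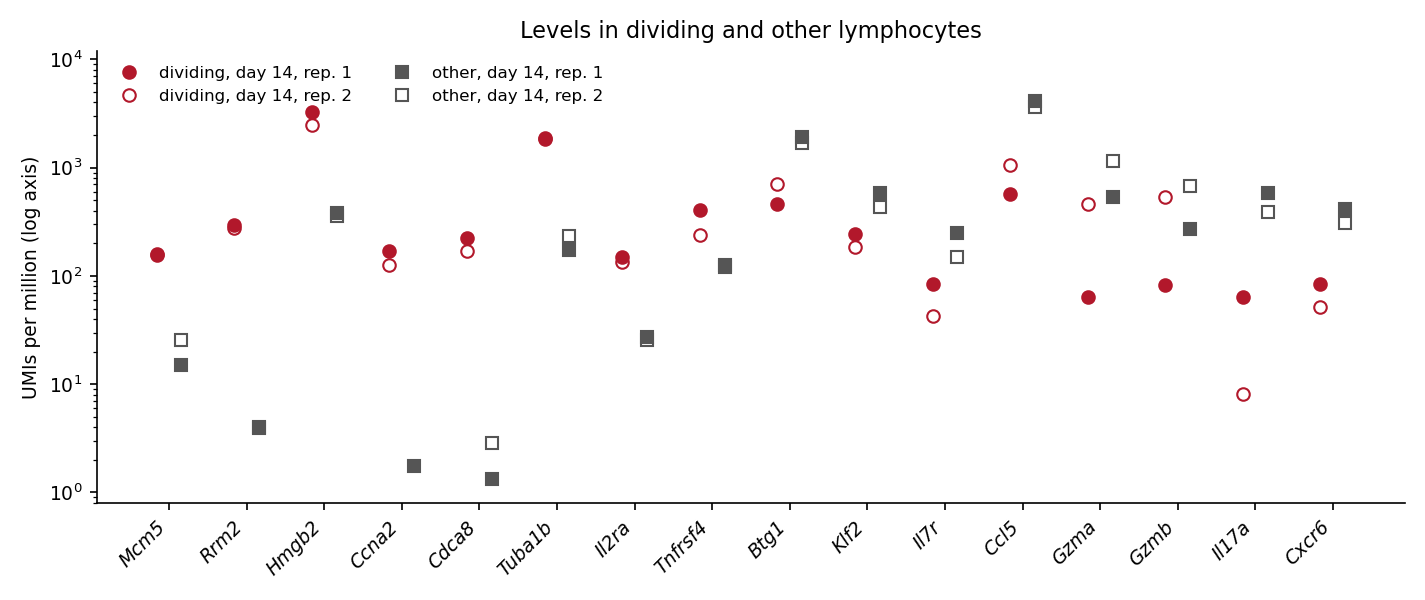
CPM (y axis, log scale) for 16 genes in dividing (red circles) and other (grey squares) lymphocytes of the 2 day 14 libraries (filled for library 1, open for library 2; values of 0 are not drawn). Rrm2 lies at 296 and 275 in dividing cells and near 4 in other cells, and Ccl5 lies at 571 and 1051 in dividing cells, below other cells.

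Activation and checkpoint receptors differed in both directions, with 4 of 17 higher, 5 lower (Icos, Cd27, Cd44, Il2rg and Il18r1) and a median log2 difference of -0.23. Within Foxp3-positive T cells the same list had none of 13 higher and 4 lower. Il2ra, the IL-2 receptor alpha chain, had 148 and 135 CPM in dividing cells, against 27.4 and 25.4 in other cells, and its UMIs came from 12 of 41 and 12 of 64 dividing cells. Tnfrsf4, known as OX40, had 402 and 240 in dividing cells, against 127 and 122 in other cells, and Ctla4 had 233 and 150, against 110 and 97.6. Tnfrsf9, known as 4-1BB, had a log2 difference of 1.17 ± 0.21, and Icos was lower, at -0.80 ± 0.19. Foxp3 itself had 51.4 and 45.1 in dividing cells, against 23.4 and 16.2 in other cells, and Ikzf2, a transcription factor of regulatory T cells, a log2 difference of 0.83 ± 0.17. Foxp3-positive cells were 17.1% of the dividing set and 3.75% of the other set on day 14; the part of that mix in these levels was not tested.

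Of 12 marker genes of T and NK subsets, 7 were lower and 1, Foxp3, higher. The 7 were Trdc, Tcrg-C1 and Tcrg-C2 of the gamma delta receptor, Trbc1 and Trbc2 of the beta chain, Eomes and Zbtb16. Among the 10 largest differences in the lower direction, Il17a, the cytokine IL-17A, had 63.5 and 8.20 CPM in dividing cells, against 583 and 386 in other cells. Cd163l1, Blk, Serpinb1a and Aqp3 had log2 differences from -3.36 to -4.00, and Trdc, the delta chain, had 130 and 129 in dividing cells, against 688 and 500 in other cells. Zbtb16, a transcription factor of innate-like T cells, had 0 CPM in both dividing sets, against 27.0 and 16.2 CPM in other cells. Cxcr6, a chemokine receptor of tissue-resident lymphocytes, had 84.7 and 51.2 CPM in dividing cells, against 417 and 307 in other cells. Of 14 homing receptors 7 were lower and none higher. Within T cells without an NK receptor UMI, where 718 of 6183 genes were higher (11.6%) and 551 lower (8.91%), Il17a and Tcrg-C1, a gamma chain, still had log2 differences of -4.08 ± 0.25 and -3.59 ± 0.28. Gamma delta T cells were 3.81% of the dividing set and 17.5% of the other set on day 14; the part of that mix was not tested.

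Granule genes differed between the libraries. Of 12 tested, 7 were lower and 1, Gzmc, higher. Gzma had 63.5 and 463 CPM in dividing cells, against 537 and 1141 in other cells, and Prf1, perforin, a log2 difference of -1.65 ± 0.30. Gzmb had 81.6 and 541 in dividing cells, against 272 and 673 in other cells, and per cell it counted 0.659 and 4.13 UMIs in dividing cells, against 0.656 and 2.01 in other cells. Gzmc had 21.2 and 578 in dividing cells, against 110 and 214 in other cells, so the libraries went opposite ways, and 1 cell held 122 of its 282 UMIs in library 2; without library 2 the log2 difference was -2.35. Areg, an epidermal growth factor ligand of tissue T cells, had 90.7 and 139 in dividing cells, against 54.8 and 87.8 in other cells, with 46 of 68 UMIs of library 2 in 1 cell, and its log2 difference of 0.69 turned to -0.55 without cells of high UMI count. Klrg1, an inhibitory receptor, was the 1 of 20 NK receptor genes that was higher, with 60.5 and 100 in dividing cells, against 18.1 and 24.3 in other cells, while 11 were lower.

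Markers of other lineages differed between the sets in either direction. The 10 dendritic cell markers summed to 1493 and 2703 CPM in dividing cells on day 14, against 2722 and 5050 in other cells. Of 6 of them tested, 4 were lower and none higher. The 8 monocyte and neutrophil markers summed to 734 and 1309 in dividing cells, against 1403 and 1577 in other cells, with all 4 tested genes lower. Ly6g was at 0 in dividing and other sets alike. The 11 microglia and macrophage markers summed to 515 and 684 in dividing cells, against 564 and 662 in other cells, with P2ry12 or Mrc1 at 0 in a dividing set. Of 9 of them tested, 1, Adgre1, was higher and none lower. The 10 B cell and plasma cell markers summed to 590 and 380, against 356 and 302 in other cells, with Pax5 at 0 in both dividing sets. Of 3 of them tested, 2, Ighm and Igkc, were higher and none lower. Cd74, the class II invariant chain, had 698 and 1446 CPM in dividing cells, against 1530 and 2765 in other cells. Their part in the results was not tested.

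Within Foxp3-positive T cells of day 14, 18 dividing cells were set against 57 others. Of 1614 genes, 147 were higher (9.11%) and 158 lower (9.79%), 18.9% in all, and none passed with cells thinned to 1000 UMIs. Ube2c and Rrm2 had 466 and 155, and 237 and 243 CPM in the dividing cells, and no UMI of either was seen in the other Foxp3-positive cells of either library. Cdca3, Cdk1 and Mcm5 showed the same picture, with at most 1 UMI in the other cells of a library. Glycolytic genes were higher in 5 of 10: Gapdh had 1913 and 1892 in dividing cells, against 884 and 874 in other cells, and Ldha had 1336 and 1428, against 602 and 722. Mt1, a metallothionein, had 206 and 266 in dividing cells, against 9.71 and 0 in other cells, from 7 of 10 and 5 of 8 cells. Hsp90aa1, a chaperone, had a log2 difference of 1.57 ± 0.27.

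The same cells had lower Klf2, with 206 and 144 CPM in dividing Foxp3-positive cells, against 1156 and 893 in other ones, and lower Btg1 (261 and 299 against 1525 and 1310). Ccl5 had 63.2 and 88.5 in dividing cells, against 855 and 1177 in other cells. Icos, Cd27 and Cxcr3, receptors of costimulation and homing, had log2 differences of -1.69 ± 0.32, -2.06 ± 0.44 and -2.63 ± 0.64, and Tsc22d3, a glucocorticoid-induced gene, -3.71 ± 0.62. These are shares of UMIs. The 10 and 8 dividing cells held 122895 and 86596 UMIs in all, and the 40 and 17 other cells held 109682 and 53104. A lower share here need not be a lower amount per cell. H2-Ab1 and Igkc, genes of antigen-presenting and B cells, were higher (1.35 ± 0.41 and 2.32 ± 0.52), with 80 of 95 and 38 of 46 H2-Ab1 UMIs in 1 cell of each library. Dendritic cell markers summed to 3149 and 2183 in dividing Foxp3-positive cells, against 556 and 2975 in other ones. Their part in the result was not tested.

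Within CD8 T cells, 24 dividing cells were set against 235 others on day 14, and 150 of 2514 genes were higher (5.97%) and 125 lower (4.97%). All 17 tested spindle genes were higher. Rrm2 had 281 and 281 CPM in dividing CD8 T cells, against 5.08 and 3.64 in other ones, and Cenpf had 266 and 152, with no UMI in the others. Spc24, Ccna2 and Tk1 had log2 differences from 5.15 to 6.67. Ccl5 had 1655 and 1579 in dividing cells, against 7245 and 7362 in other cells, and Btg1 had 488 and 631, against 1691 and 1436. Gzmb was close, with 236 and 713 in dividing CD8 T cells, against 228 and 818 in other ones (log2 difference -0.11 ± 0.27), while Gzma had 0 and 117 CPM, against 109 and 262. Cxcr3, Ccnd2 and Zfp36, an RNA decay factor, were lower, at -1.32 ± 0.44, -1.70 ± 0.35 and -2.65 ± 0.71. Cd74 was lower, at -2.07 ± 0.17, and the dendritic markers summed to 340 and 2547 in dividing CD8 T cells, against 4459 and 5176 in other ones; their part was not tested.

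NK cells were compared over all 4 libraries, with 29 dividing cells against 471 others, since 2 or more dividing cells were found in each. Of 1627 genes, 120 were higher (7.38%) and 87 lower (5.35%). Cdk1 had 218 and 167 CPM in dividing NK cells on day 14 and 197 and 345 on day 5, against at most 5.26 in other NK cells. Rrm2, Ccna2 and Cdca3, a trigger of mitotic entry, had log2 differences from 6.12 to 6.94. Granule genes were lower in 6 of 10 and higher in none. Gzma had 617 and 1461 in dividing NK cells on day 14 and 7718 and 5090 on day 5, against 2577 and 2988 on day 14 and 13640 and 9560 on day 5 in other NK cells, lower in each library. Prf1 and Fasl, which kill targets, had log2 differences of -1.20 ± 0.26 and -2.06 ± 0.47. Ccl5 had 254 and 810 in dividing NK cells on day 14 and 6103 and 3796 on day 5, against 5759 and 4006 on day 14 and 26134 and 16334 on day 5 in other NK cells.

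In the same NK comparison Klf2, Ccnd2, Bcl2 and Klrc1, an inhibitory receptor subunit, were lower, at -1.12 ± 0.24, -1.15 ± 0.29, -1.24 ± 0.26 and -0.96 ± 0.29. Zfp36 was higher, at 1.18 ± 0.36, but not in day 14 library 1. Cd74 and H2-Aa, class II genes, were lower, at -3.20 ± 0.31 and -2.68 ± 0.40. The dendritic markers summed to 420 and 678 in dividing NK cells on day 14 and 336 and 105 on day 5, against 1820 and 2535 on day 14 and 5257 and 7879 on day 5 in other NK cells. Their part in the result was not tested.

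The difference between NK and T cells in what goes with division was tested as an interaction, over the 3 libraries with at least 2 dividing cells of both. The rule used the same 5 proliferation genes in both, while NK cells had no T cell UMI and T cells no Ncr1 or Klrb1c UMI. These sets were picked by reads of the same libraries, and dividing cells held more UMIs. The p-values given for this difference are therefore a description too. The T cells mixed kinds whose shares differed between dividing and other cells, gamma delta T cells among them. The part of that mix in the difference was not tested. Of 3340 genes, 12 passed an adjusted p of 0.05 in edgeR's quasi-likelihood test, 5 higher (0.15%) and 7 lower (0.21%) in NK than in T cells, which is 0.359%; 184 had an unadjusted p under 0.05. No gene of the 8 cell cycle lists was among the 12. With simulated counts of this design, 64.8% of differences of 2 on the log2 scale and 11.6% of differences of 1 were found. The simulation gave a gene the same mean level in all sets, while many cycle genes were near 0 in other cells. The rates may not hold for cycle genes, and differences in them may have been missed.

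Gzmb was the granule gene whose difference passed. It had 34.0 and 762 CPM in dividing NK cells on day 14 and 534 in day 5 library 1, against 892, 1219 and 1328 in other NK cells of these libraries. The value of 34.0 is 1 UMI in 1 of 4 cells, and 35 of the 89 UMIs of day 14 library 2 lay in 1 cell. In T cells it had 102, 564 and 224 in dividing cells, against 125, 334 and 397 in other cells. The dividing effect in NK minus that in T cells was -1.48 ± 0.37 on the log2 scale (edgeR's quasi-likelihood adjusted p = 0.0261). Xcl1, a chemokine that draws dendritic cells, differed by -1.54 ± 0.40 and Tnfrsf9 by -2.25 ± 0.50 (edgeR's quasi-likelihood adjusted p = 0.0311 and 0.00382). Zfp36 differed by 1.81 ± 0.39 and Klra3, an NK receptor of the Ly49 family with near-identical relatives, by -3.27 ± 0.73 (edgeR's quasi-likelihood adjusted p = 0.00269 and 0.00443). Cxcl2, a neutrophil chemokine, passed as well, at 5.73 ± 0.64, but 55 of its 57 UMIs in dividing NK cells of day 14 library 2 lay in 1 cell and dividing NK cells of the other libraries had none. For Xcl1, Tnfrsf9, Zfp36 and Klra3 the libraries did not all point the same way. Gzmb, Xcl1, Tnfrsf9, Zfp36 and Klra3 were each lost in at least 1 fit without a library, and DESeq2 called 2 genes. Without day 14 library 1 there were 5 calls, and without day 14 library 2 there were 4.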

How the data were processed

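CD45high cells of 4 libraries were sequenced, and the deposited files hold UMI counts per gene and barcode as the authors made them, with Cell Ranger 3.0.1 and Seurat 2.3.4 on GRCm38 (mm10) per the submitters' processing notes; the annotation release is not given in the sources used here. Library totals were 9288054 to 13610119 UMIs.

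Barcodes were kept and sorted by the rule given in the report. UMIs were summed per library and set of cells and tested with edgeR 4.0.16 (R 4.3.3): TMM, filterByExpr, quasi-likelihood, library as a block except between days, Benjamini-Hochberg adjustment over all genes tested, threshold 0.05. The 21 genes of the rule counted towards library sizes and were not tested. At least 10 cells a set were asked for, lowered to 2 for NK cells and the NK and T difference and to 5 for Foxp3-positive and CD8 T cells after the cell numbers were seen, and the Foxp3-positive and CD8 comparisons were added then. Members and lists were chosen with earlier results of these data known. Genes named were list members and, per comparison, among the 10 largest changes each way with 50 CPM or more and 1 direction in every library; Cxcl2 and Klra3 were named after their values were seen, as the rest of the 12 genes that differed between NK and T cells were. DESeq2 1.42.0, RLE factors, no filter, other limits, thinning (seed 7), left-out cells and libraries were the alternatives. Intervals are 95% exact binomial and cover counting error only. Doublets were not called. The edgeR steps were tested on simulated data. Values of some genes are not reported here.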

Additional observations from a re-analysis of the deposited data

Results flagged for a closer look

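Of the 12 genes whose dividing effect differed between NK and T cells in edgeR's quasi-likelihood test (Benjamini-Hochberg adjusted p under 0.05), 7 went the same way in all 3 libraries and are given here as the effect in NK minus that in T cells, on the log2 scale. Tcrg-C1, a gamma chain with near-identical relatives, differed by 7.20 (SE 1.06, adjusted p = 2.06e-08), on 0, 6 and 3 UMIs in 4, 18 and 5 dividing NK cells and 16, 2 and 0 UMIs in 31, 35 and 2 dividing T cells. With 0 UMIs in a set of day 14 library 1 and of day 5 library 1, its size depends on the prior count. The part of the mix of T cell kinds in the Tcrg-C1 difference was not tested. Tmem176a differed by 4.45 (SE 0.68, adjusted p = 8.94e-08), with all 7 UMIs of day 14 library 1 in 1 dividing NK cell. Bcl2a1d, a survival gene of a family with near-identical copies, differed by 1.99, with 6 of 6 UMIs in 1 dividing NK cell of day 14 library 1. Chchd10, a mitochondrial protein gene, differed by a fitted -8.42, which depends on the prior count since dividing NK cells held 0 UMIs of it in every library, against 42, 21 and 1 in dividing T cells. Klrg1 differed by -3.26, with 3 UMIs in 1 dividing NK cell. Ifitm2 and Gzmb differed by -2.26 and -1.48. Tmem176a, Klrg1 and Ifitm2 also had at least 1 dividing set with 0 UMIs, so their sizes depend on the prior count too. The sets were picked by reads of the same libraries, so the p-values of these genes are a description.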

How the results depend on the processing

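Between 2 and 64 dividing cells stand behind each dividing set, and few cells limit the comparisons of these sets. No count of calls between dividing and other cells could be had without a day 14 library where day 14 alone was used, the Foxp3-positive comparison could not be run without cells of high UMI count, and dividing cells of day 14 and day 5 were not compared. Of the values for single genes, 1549 kept their direction and side of the threshold, 223 lost the call, 108 moved with no test and 11 reversed; of the counts and shares, 100 stayed close and 39 moved. The cause of the changes was not tested.

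Genes past the threshold between dividing and other lymphocytes (1402) numbered 352 by DESeq2, 597 without cells of high UMI count, 248 with cells thinned to 1000 UMIs, 860 over all 4 libraries, and 335 to 954 there without 1 library each (335 and 371 without day 14 library 1 and library 2, 758 without day 5 library 1). In T cells (1269) they numbered 280, 544 and 136 by DESeq2, without cells of high UMI count and thinned. In NK cells (207) these counts were 99, 70 and 24, with 134 under no replicate block, meaning no library term, and 119 to 172 without 1 library (121 without day 14 library 1). In Foxp3-positive T cells (305) DESeq2 gave 46 and thinning 0 in edgeR, with 39 at an unadjusted p under 0.05. In CD8 T cells (275) DESeq2 gave 43, a limit of 6 UMIs 157, thinning 44 and no replicate block 167. The NK and T difference (12) had 2 calls by DESeq2, 6 without cells of high UMI count, 21 without cells holding other lineage UMIs, 1 thinned, 2 with no replicate block, and 4 to 18 without 1 library.

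Between the days, T cells (54 genes) had 181 with no low count filter, 28 without cells of high UMI count, 56 to 140 without 1 library (102 without day 14 library 2, 88 and 140 without day 5 library 1 and library 2) and 129 with the replicate number as a block. Over all tested genes, same-numbered libraries did not deviate together (correlation -0.04 in T and NK cells alike). The day 5 sums held only 56 to 81 cells, where counting error is large. The correlation therefore cannot decide whether the numbers pair the libraries. NK cells (262) had 123 by DESeq2 and 110 to 264 without 1 library (110 without day 5 library 1). The share of dividing cells in day 14 library 2 was 7.62% at a limit of 6 UMIs and 7.0% thinned.

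In dividing against other lymphocytes, Gzmc reversed to -0.40 by DESeq2 and lay at -2.35 and 1.44 without day 14 library 2 and library 1. Areg reversed to -0.55 without cells of high UMI count and to -1.23 thinned, and Ldha to -0.0058 thinned. In CD8 T cells Gzmb, which was not called (-0.11), was 0.060 without cells of high UMI count, 0.085 without other lineage UMIs, 0.46 thinned, and -0.20 and 0.051 without day 14 library 1 and library 2. In the NK and T difference, Cxcl2 was -4.20 without day 14 library 2 and 6.84 without day 5 library 1, and Tmem176a was -3.19 thinned.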

Other observations

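Some genes of energy supply were higher in dividing lymphocytes of day 14, as a description of cells chosen from the same reads. Of 16 glycolysis genes, 6 were past the threshold in the higher direction, none in the lower and 10 did not pass, with a median log2 difference of 0.27, against -0.04 for all genes. Gapdh, a glycolytic enzyme, had 1551 and 1395 CPM in dividing cells, against 658 and 787 in other cells. The list's median was -0.18 without cells of high UMI count and 0.10 with cells thinned to 1000 UMIs. Of 14 genes each of the respiratory chain and the proteasome, 5 were higher and none lower. Of 16 type I interferon genes, 1 was higher and 5 lower. Of all 7901 genes tested, 10.5% were higher and 7.2% lower. DESeq2 called 1 gene of the respiratory chain, 0 of the proteasome and 1 of the interferon list.

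In all NK cells, dividing or not, Gzmc, a granzyme, had 360 and 467 CPM on day 14, against 30.2 and 31.3 on day 5, and the days did not overlap (log2 difference 3.75 ± 0.35). It was the 1 granule gene of 11 that was higher on day 14, while Gzma, Prf1, Nkg7 and Serpinb9 were lower, and the list's median was -0.33. In all T cells Il17a had 722 and 522 CPM on day 14, against 112 and 72.8 on day 5 (log2 difference 2.71 ± 0.27), while it was low in the dividing cells of day 14.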
